A study of Mus musculus with 12 samples.

Results

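The aminoacyl-tRNA synthetases described here were 36 genes, 20 for cytosolic and 16 for mitochondrial enzymes, out of 23362 genes counted. They were chosen by name, and all 36 had reads in all 12 libraries. The libraries held polyadenylated RNA of granulocyte-macrophage progenitors (GMP, marrow precursors of granulocytes and monocytes) from C57BL/6 mice, with 3 libraries in each of 4 groups. GMP WT was wild type and GMP KO was Xbp1-deficient, both sorted straight into Trizol, with TruSeq libraries. GATA2-GMP WT and GATA2-GMP KO were wild-type and Xbp1-deficient GMP that were sorted, transduced with GATA2 (a factor that drives eosinophil and mast cell fates), sorted again and grown for 48 hours; their RNA was amplified with a SMARTer low-input kit before TruSeq. Stage, transduction, culture and kit therefore cannot be told apart. The labels give no Xbp1 allele, no promoter or Cre behind the deficiency, no age and no animal behind a replicate number, so that p-values measure the spread between these libraries, which may be technical.

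A synthetase joins an amino acid to its tRNA. Vertebrate cells carry separate enzymes for the cytosol and for the mitochondrion, all encoded in the nucleus, and Gars and Kars each make both forms from 1 gene. When a tRNA is left uncharged, the kinase GCN2 phosphorylates the initiation factor eIF2, as the kinase PERK does under stress of the endoplasmic reticulum (ER). Translation of ATF4 then rises, and ATF4 activates genes of amino acid uptake and synthesis, among them most cytosolic synthetases, and few mitochondrial ones. XBP1 is the transcription factor of the parallel IRE1 arm of the ER stress response. ATF4 binds DNA with C/EBP partners at elements close to TGATGNAA, where N is any base.

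RefSeq promoters (GRCm38.p6 table) were present for 13 of the 20 cytosolic and 15 of the 16 mitochondrial genes. Cars, Hars, Lars, Nars, Rars, Vars, Wars and Pars2 had no entry and were not searched. Within the 250 bases before the start, on either strand, the motif TGATGNAA occurred in 3 of the 13 cytosolic genes and in none of the 15 mitochondrial ones. It occurred in 3.91% of all 27025 genes with a promoter and in 7 of 30 genes of an ATF4 pathway list. The windows of Gars and Tars are shown because these members carry the element named for ATF4 in their promoters. They are read 5′ to 3′ on the strand of the gene, with the match, which lies on the opposite strand, in capitals:
Gars, chr6:54987954-54987983 (mm9, plus strand): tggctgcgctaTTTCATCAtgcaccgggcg
Tars, chr15:11329414-11329439 (mm9, minus strand): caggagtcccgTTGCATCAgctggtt
The matches begin 30 and 15 bases before the RefSeq start of Gars and Tars. A match is a description of the letters and shows no binding.

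Library totals ran from 8219366 to 33640911 counts. The labelled cells were checked against marker lists. Sums over 10 GMP markers (expression in CPM, each gene's count scaled to library size) were 22249 to 28498 CPM in GMP and 3949 to 6831 CPM in GATA2-GMP. Sums of 8 eosinophil markers were 76.7 to 270 CPM in GMP WT, 317 to 641 CPM in GMP KO, and after GATA2 transduction 134640 to 205030 CPM in WT and 55749 to 67782 CPM in KO. Sums over 5 lymphoid genes were 259 to 418 CPM in GMP, where Cd3e and Cd3g were at 0 in each library, and 335 to 625 CPM in GATA2-GMP. Within GATA2-GMP, WT 3 and KO 3 stood apart: across 11699 genes the deviations of WT 3 from its group mean correlated with those of KO 1 and KO 2 (r = 0.32 and 0.39), and those of KO 3 with those of WT 1 and WT 2 (r = 0.21 and 0.36). Deviations within a group cancel out, so these values are tied to the r of -0.49 between WT 3 and KO 3. They are not separate observations. Xbp1 itself was at 131, 133 and 153 CPM in GMP WT, 89.8, 55.9 and 56.8 CPM in GMP KO, then, in GATA2-GMP, 381, 269 and 197 CPM in WT against 99.9, 122 and 128 CPM in KO. Each KO library was below each WT library of its stage, but edgeR's adjusted p was 0.0919 in GMP and 0.0959 in GATA2-GMP. Since the counts cover the whole gene, exons outside a deleted part are counted too.

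By class median, cytosolic synthetase mRNA stood above mitochondrial synthetase mRNA in each group. Per kilobase of exon, the median cytosolic enzyme stood at 38.3 CPM in GMP WT, 39.6 in GMP KO, 54.7 in GATA2-GMP WT and 70.8 in GATA2-GMP KO. The median mitochondrial enzyme stood at 11.3, 11.5, 5.45 and 4.71 CPM per kilobase in the same order. Nars, the asparaginyl enzyme, was the highest cytosolic member in each group, from 121 ± 12.5 CPM per kilobase (SD, n = 3) in GMP WT to 251 ± 73.7 in GATA2-GMP KO. Cars, the cysteinyl enzyme, was the lowest in GMP, at 8.58 ± 0.803 CPM per kilobase in WT, and Vars, the valyl enzyme, was the lowest in GATA2-GMP, at 1.40 ± 0.435 in WT.

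Lars2, the mitochondrial leucyl enzyme, was a case apart. It had 529 ± 260 CPM per kilobase in GMP WT, while the next mitochondrial member, Tars2, had 16.8 ± 1.11, and it took 60.9 to 86.3% of the summed mitochondrial CPM of a library. Its last exon (mm9 chromosome 9, 123370617 to 123371782, 1166 bases) resembled 24 other places in the genome, all within exon bases 294 to 691, of which 5 matched at 95% identity or more over at least 100 bases. By library Lars2 had 1562, 1386 and 3212 CPM in GMP WT and 1568, 953 and 1137 CPM in GMP KO. The library with 3212 CPM was also the one with most Rn45s, a ribosomal RNA precursor, at 22078 CPM against 9494 and 10211 in the other GMP WT libraries. Libraries ranked by Rn45s had the same order by Lars2 in GMP KO and GATA2-GMP WT, and the reverse order in GATA2-GMP KO. Between the WT stages mean Rn45s went from 13928 to 4987 CPM, and mean Lars2 from 2053.5 to 2018 CPM. Lars2 counts are therefore uncertain, the part of rRNA or of the resembling sequence in them was not tested, and class sums are given without Lars2.

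Summed over the 20 cytosolic members, GMP WT had 3298, 3105 and 2926 CPM and GMP KO had 3445, 3229 and 3097 CPM. In GATA2-GMP the WT sums were 3155, 3941 and 5070 CPM, and the KO sums 5994, 6563 and 5108 CPM. The KO libraries of GATA2-GMP were all higher than the WT ones, though the highest WT library (5070) almost reached the lowest KO library (5108), while in GMP the genotypes overlapped. The 15 mitochondrial members without Lars2 summed to 605, 595 and 561 CPM in GMP WT, 644, 611 and 585 in GMP KO, and, in GATA2-GMP, to 355, 394 and 400 CPM for WT and 448, 460 and 405 CPM for KO. These sums, like the cytosolic ones, overlapped in GMP and did not in GATA2-GMP, where the highest WT library (400) was close to the lowest KO library (405). The ratio of the cytosolic to this mitochondrial sum was 5.30 ± 0.138 (SD, n = 3) in GMP WT and 5.31 ± 0.0350 in GMP KO. In GATA2-GMP it was 10.5 ± 1.94 for WT and 13.4 ± 0.827 for KO, where the genotypes overlapped (12.7 in WT 3 and 12.6 in KO 3).

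**Figure D1:**
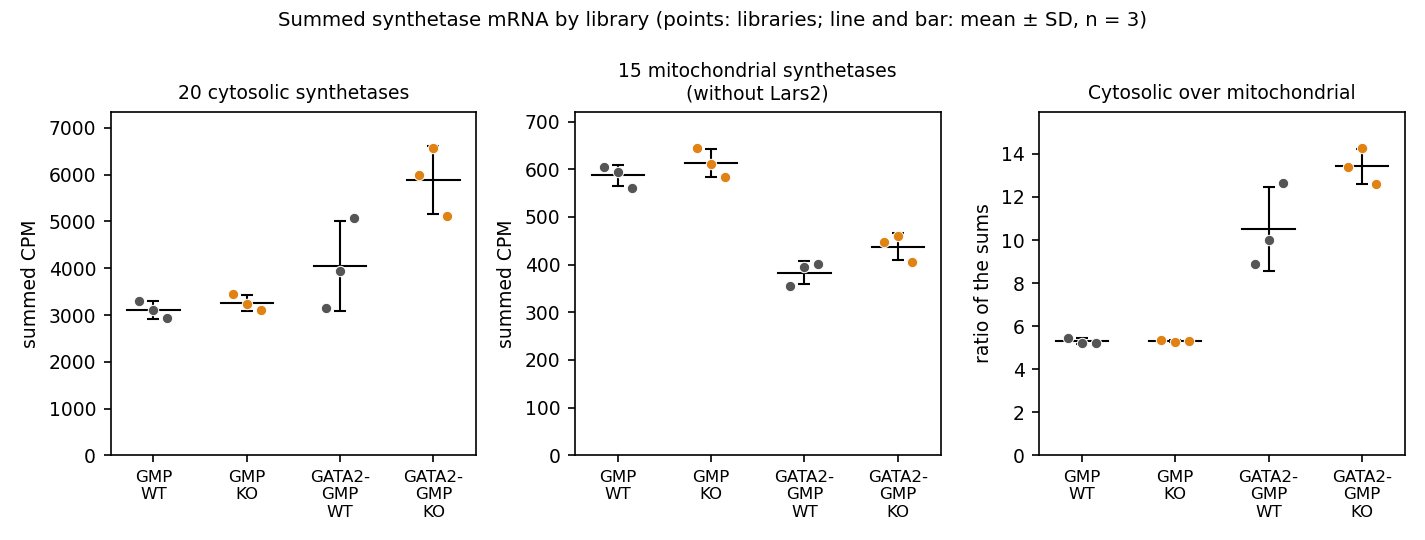
Summed CPM of the 20 cytosolic synthetases (left), of 15 mitochondrial synthetases without Lars2 (middle) and their ratio (right); points are libraries, lines and bars are mean ± SD of 3. The ratio lies near 5.30 in all 6 GMP libraries and between 8.89 and 14.3 in the 6 GATA2-GMP libraries.

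The first comparison asked what Xbp1 deficiency did to synthetase mRNA in freshly sorted GMP. The changes were small, and those with the smallest p were cytosolic and higher in KO: Yars, Vars and Cars, the tyrosyl, valyl and cysteinyl enzymes. In bulk RNA, fewer cells of a type and less RNA per cell cannot be told apart. The eosinophil marker sums moved with genotype too, higher in each GMP KO library, and so did Rn45s, lower in each KO library (6146 to 8186 CPM against 9494 to 22078 CPM); their part in the synthetase values was not tested. None of the 36 members passed edgeR's quasi-likelihood test at an adjusted p under 0.05, where 0.658% of 12002 genes passed as higher and 2.52% as lower. At an unadjusted p under 0.05, 7 of 20 cytosolic members were higher and 0 lower, and 1 of 16 mitochondrial members (Tars2) was higher and 0 lower, against 6.78% and 7.69% of all genes. DESeq2, which called 3.03% of its 16279 genes in either direction, called Vars, Yars and Cars higher and no mitochondrial member. Because GMP libraries of the same replicate number resembled each other, a second edgeR fit took the number as a block. The labels do not say what a number stands for, so this pairing rests on the same counts that the fit tests. The correlations behind it are also tied to each other, since deviations within a group cancel out. The blocked fit called 5 cytosolic members higher (Cars, Vars, Yars, Aars and Gars) and no mitochondrial one, where 3.3% of all genes passed as higher and 4.73% as lower.

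Cars had 44.0, 38.9 and 36.8 CPM in GMP WT and 56.6, 47.5 and 46.6 CPM in GMP KO. All 3 KO libraries lay above all 3 WT libraries, and within each group replicate 1 was the highest. Its log2 fold change, KO over WT, was 0.32 (SE 0.086, edgeR adjusted p = 0.0743), and in the blocked fit 0.31 (SE 0.059, adjusted p = 0.00207). Yars, which also has signalling fragments outside translation, had 78.9, 76.3 and 76.7 CPM in WT and 96.4, 88.3 and 92.1 CPM in KO. These groups did not overlap either: the log2 fold change was 0.24 (SE 0.060, edgeR adjusted p = 0.0511; blocked 0.00586). Vars had 287, 285 and 299 CPM in WT and 363, 325 and 343 CPM in KO. It too was higher in each KO library, with a log2 fold change of 0.23 (SE 0.059, edgeR adjusted p = 0.0585; blocked 0.00524).

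Gars, the glycyl enzyme of both compartments, had 135, 125 and 125 CPM in WT and 161, 140.0 and 140.0 CPM in KO, again without overlap. Its log2 fold change of 0.19 (SE 0.064) had an edgeR adjusted p of 0.186, and of 0.0223 with the block. Aars, the alanyl enzyme, overlapped between genotypes (129, 121 and 113 CPM against 153, 136 and 129 CPM). Its log2 fold change was 0.19 (SE 0.067), with an edgeR adjusted p of 0.201, and of 0.0217 with the block. Without GMP KO 2, the unblocked edgeR fit called Vars, Yars and Cars higher, with adjusted p of 0.0197, 0.0263 and 0.0444. It then called 370 of 12127 genes, 110 of them higher. Leaving out any other single GMP library gave no called member.

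The cytosolic members lay on both sides of 0. The split of them into 13 and 7, used here and below, was made with earlier results of these data known. It is therefore not independent of the values it separates. Of 13 whose genes are linked to ATF4 by general knowledge, 12 had a positive fold change in GMP (median 0.15 on the log2 scale, 5 called with the block), and Eprs, the glutamyl-prolyl enzyme, was at -0.07. Of the other 7 (Dars, Farsa, Farsb, Hars, Kars, Qars and Rars), 1 was positive, Farsa at 0.05, with a median of -0.04. The mitochondrial members had 9 of 16 positive and a median of 0.04, and all genes a median of 0.01. These counts moved with the settings: over 11 alternatives, 8 to 12 of the 13, 1 to 4 of the 7 and 8 to 11 of the 16 were positive. The median of the 13 was 0.08 without GMP KO 1. That of the 7 was 0.01 without WT 1, -0.11 without WT 3 and -0.06 without KO 1, and that of the 16 was 0.07 without WT 2, -0.005 without WT 3 and 0.01 without KO 1. Fold change in GMP rose slightly with the GC content of genes (Pearson r = 0.16 across 11258 genes), and against the median of genes of like GC content 10 of the 13, 4 of the 7 and 9 of the 16 were above. Libraries of the genotypes did not overlap, with KO higher, for 6 cytosolic members (Cars, Farsa, Gars, Iars, Vars and Yars) and 1 mitochondrial member (Vars2), where 11.3% of all genes did so, and for no member with KO lower, where 8.09% did. For Lars2 the log2 fold change was -0.77 (SE 0.45, edgeR adjusted p = 0.526).

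The ATF4 pathway list of 34 genes, of which 31 were tested, had 6 higher and 1 lower in GMP KO by edgeR, and 9 higher and 1 lower with the block. Atf5, a transcription factor made under the same translational control as ATF4, rose from 12.2 ± 0.319 to 20.3 ± 2.38 CPM (SD, n = 3; log2 fold change 0.72, edgeR adjusted p = 0.000736). The mitochondrial serine and folate enzymes Shmt2 and Mthfd2 rose by 0.26 and 0.33 on the log2 scale (adjusted p = 0.0176 and 0.0209). The one fall was Slc1a5, a glutamine carrier, at -0.37 (adjusted p = 0.00267). Trib3, an inhibitor of ATF4 activity and its target, rose by 2.69 on the log2 scale (SE 0.56, edgeR adjusted p = 0.0226) at levels of at most 1.75 CPM. Atf4 mRNA was not called (-0.11, adjusted p = 0.528), nor were Ddit3, the stress factor CHOP (-0.05, adjusted p = 0.908), and Asns, the asparagine synthetase (0.68, adjusted p = 0.167). Eif2ak3, the gene of PERK, fell by 0.46 on the log2 scale (adjusted p = 0.0405).

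**Figure D2:**
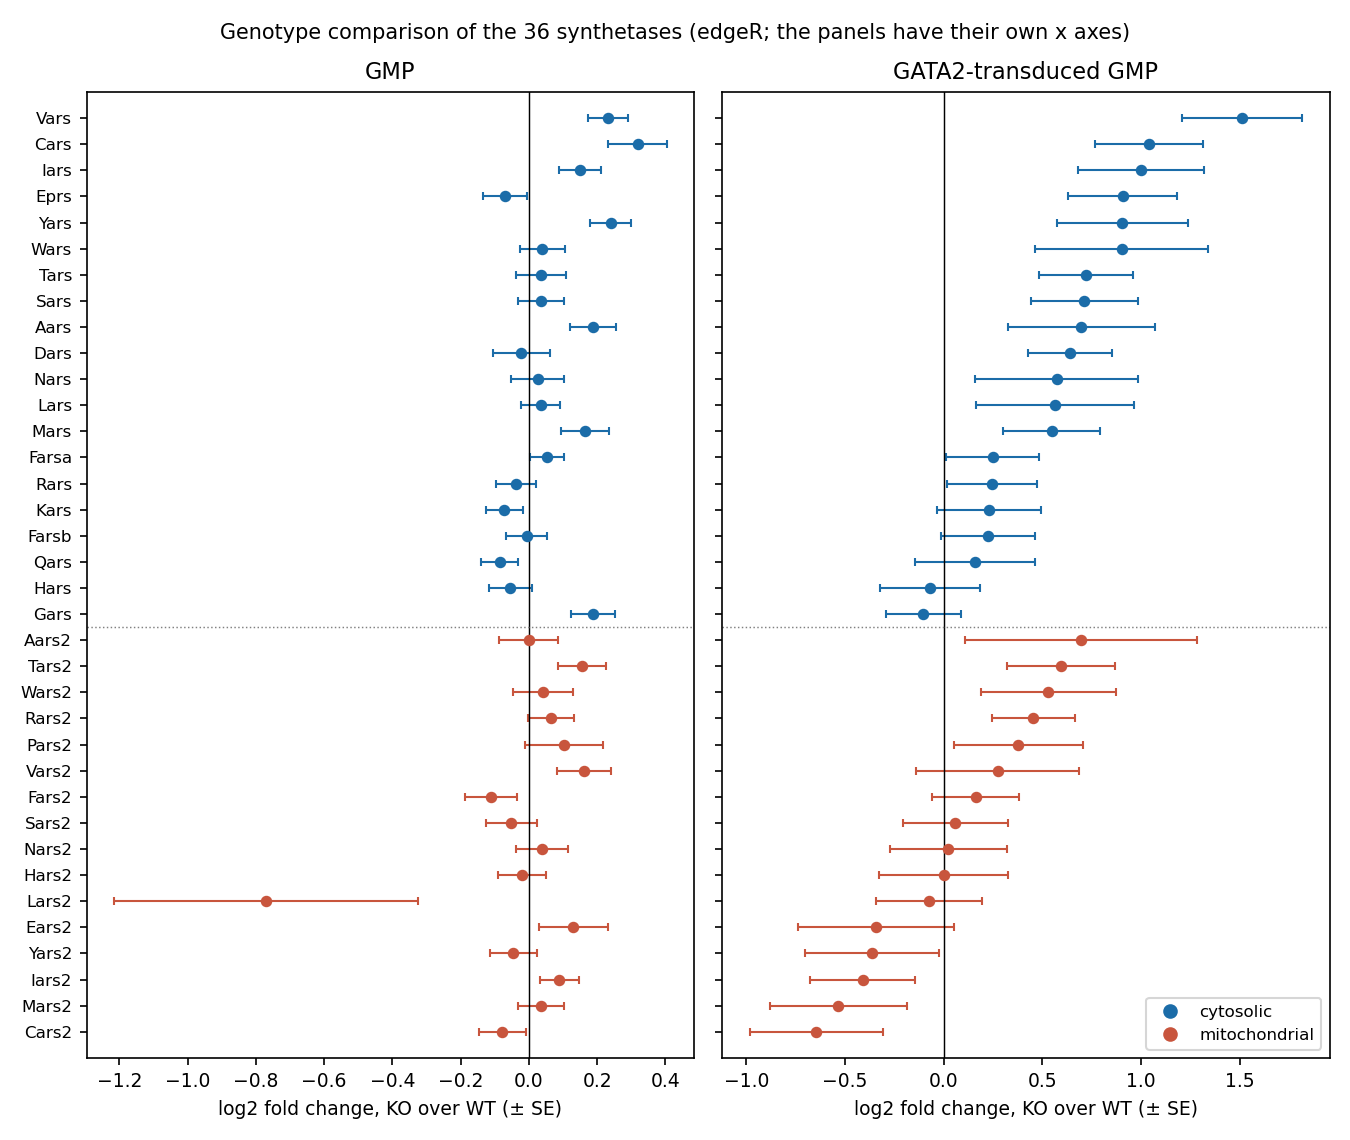
Log2 fold change, KO over WT, of each synthetase in GMP (left) and GATA2-GMP (right), with bars of ± 1 SE; cytosolic members are above the dotted line and mitochondrial ones below, ordered by the right panel, and the x axes differ. In GATA2-GMP 18 of the 20 cytosolic points lie above 0, against 9 of the 16 mitochondrial points.

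The second comparison asked the same of GATA2-transduced, cultured cells. Here the cytosolic synthetases were higher in KO by a median of 0.60 on the log2 scale, with 18 of 20 positive, while the mitochondrial median was 0.04, with 9 of 16 positive, and that of all genes was -0.005. Leaving out 1 library moved the cytosolic median to between 0.45 (without KO 2) and 0.78 (without WT 3). It was 0.50 without WT 2, 0.51 without WT 1, 0.57 without KO 1 and 0.72 without KO 3. The mitochondrial median was 0.02 without WT 1, WT 3 or KO 2 (0.0175, 0.0212 and 0.0151), 0.14 without WT 2 and 0.10 without KO 3. The smallest p belonged to Vars, Cars, Eprs and Iars, the isoleucyl enzyme. The spread between libraries was wide, and edgeR again called none of the 36, where it called 0.103% of 11699 genes higher and 0.274% lower. At an unadjusted p under 0.05 it had 8 of 20 cytosolic members higher and 0 lower, and 0 of 16 mitochondrial members in either direction, against 6.59% of all genes higher and 8.31% lower. DESeq2, which called 2.61% of its 19208 genes in either direction, called Vars, Cars and Eprs higher and no mitochondrial member.

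Vars had 8.05, 10.2 and 5.36 CPM in these WT cells and 25.0, 24.1 and 18.2 CPM in the KO cells, from 92 to 429 counts per library. All KO libraries were above all WT libraries, at a level that was a small share of that in GMP. The log2 fold change was 1.51 (SE 0.30, edgeR adjusted p = 0.0801, DESeq2 adjusted p = 0.000717). Cars had 39.5, 56.4 and 79.1 CPM in WT and 125, 129 and 104 CPM in KO, without overlap, and a log2 fold change of 1.04 (SE 0.27, edgeR adjusted p = 0.138, DESeq2 adjusted p = 0.0189).

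Eprs had 289, 323 and 513 CPM in WT and 784, 720 and 602 CPM in KO. It did not overlap either (log2 fold change 0.91, SE 0.28, edgeR adjusted p = 0.185, DESeq2 adjusted p = 0.0384). Iars had 77.0, 96.9 and 167 CPM in WT and 264, 250 and 166 CPM in KO. Its WT 3 and KO 3 were at nearly the same level, and the log2 fold change was 1.001 (SE 0.32, edgeR adjusted p = 0.207).

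In most cytosolic members WT 3 was above KO 3 (Aars, Farsa, Gars, Hars, Iars, Kars, Lars, Mars, Nars, Qars, Wars and Yars). WT 3 was below KO 3 in Cars, Dars, Eprs, Farsb, Rars, Sars, Tars and Vars. Wars, the tryptophanyl enzyme, had 45.7, 71.3 and 159 CPM in WT and 183, 220 and 111 CPM in KO. Nars (217, 403 and 718 CPM in WT, 676, 847 and 460 CPM in KO) and Lars (138, 205 and 352 CPM in WT, 367, 465 and 193 CPM in KO) had the same order. Yars had 99.4, 121 and 228 CPM in WT and 291, 333 and 214 CPM in KO. WT 3 was also the WT library with the lowest Xbp1 (197 CPM) and the lowest Rn45s (995 CPM, against 6487 and 7479). Without WT 3, edgeR called 6 cytosolic members higher (Cars, Yars, Iars, Eprs, Wars and Vars, adjusted p from 0.0211 to 0.0387) and 1 mitochondrial member, Tars2 (log2 fold change 0.91, adjusted p = 0.0469). It also called 525 of 11980 genes without that library, 285 of them higher, against 44 of 11699 with it. Leaving out any other single GATA2-GMP library gave no called member, and without KO 3 edgeR called 0 of 11922 genes.

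**Figure D3:**
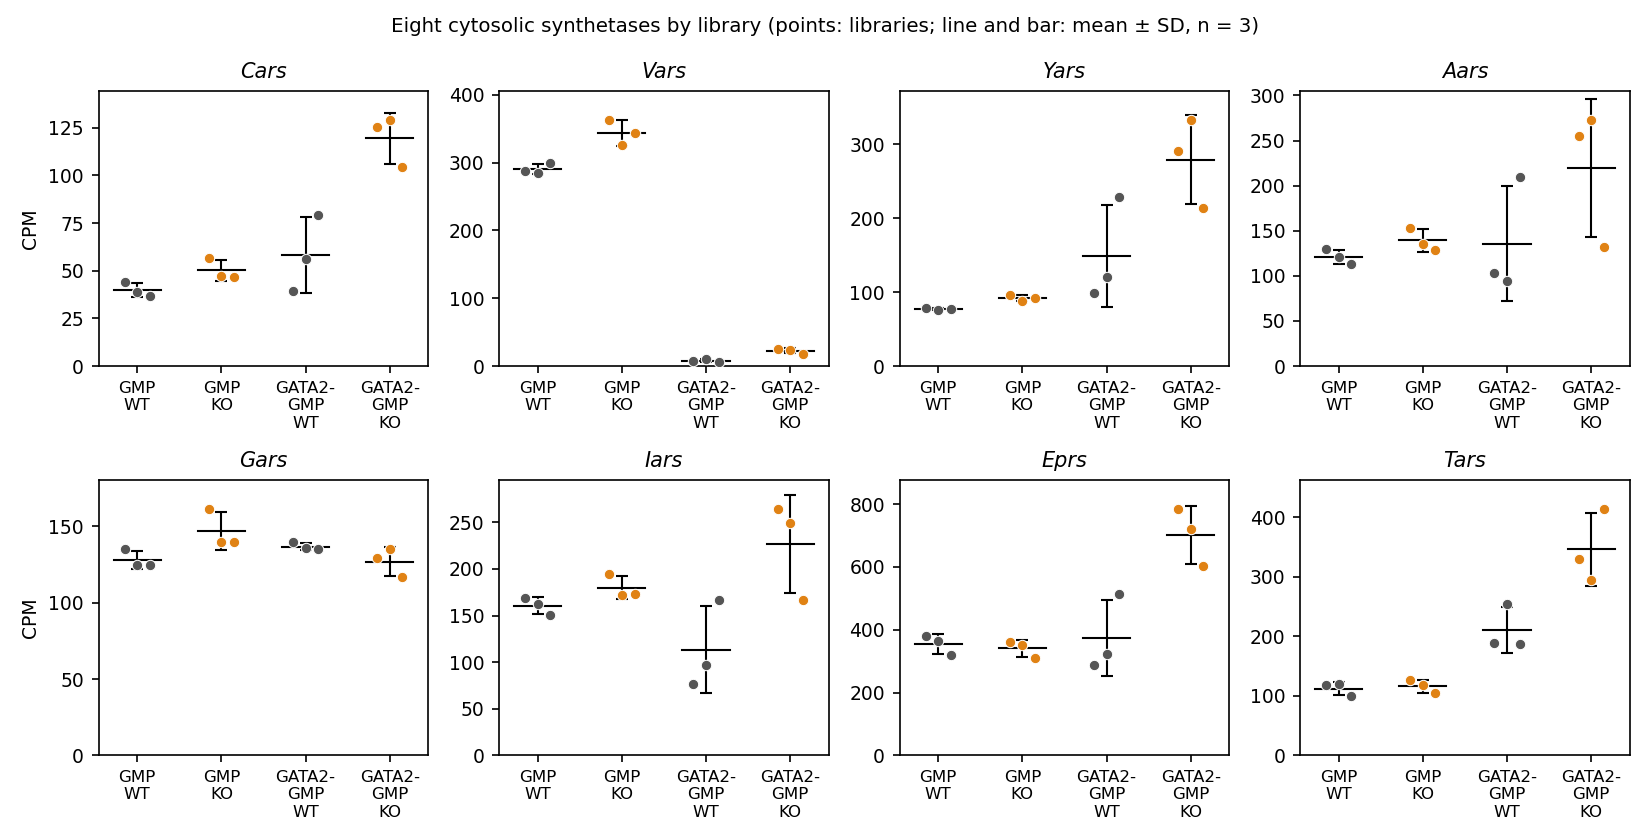
CPM of 8 cytosolic synthetases in the 12 libraries; points are libraries in replicate order from left to right, lines and bars are mean ± SD of 3, and each panel starts at 0. Cars, Vars, Eprs and Tars do not overlap between the genotypes in GATA2-GMP, and Vars falls from 285 CPM or more in GMP to at most 25.0 CPM in GATA2-GMP.

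Genotypes did not overlap, with KO higher, for 6 cytosolic members in GATA2-GMP (Cars, Dars, Eprs, Sars, Tars and Vars) and for mitochondrial Rars2, against 10.2% of all genes, and with KO lower for mitochondrial Cars2 alone, against 12.3%. The 13 ATF4-linked cytosolic members had a median of 0.72, which was 0.58 without WT 1 and 1.15 without WT 3. Of these 13, 12 were positive under the main settings and under each of 11 alternatives. The exception was Gars, with 140, 136 and 135 CPM in WT and 129, 135 and 117 CPM in KO. Of the other 7 cytosolic members 6 were positive (median 0.23, and 5 to 7 over the alternatives); their median was 0.14 without WT 1 and 0.07 without KO 2. All 8 enzymes of the multisynthetase complex, the cytosolic assembly that holds Dars, Eprs, Iars, Kars, Lars, Mars, Qars and Rars, were positive, and so were its 3 scaffold genes Aimp1, Aimp2 and Eef1e1, at 0.02 to 0.18, none of them called. Against genes of like GC content, 18 of 20 cytosolic members were above and their median was 0.58. Of the mitochondrial members 9 of 16 were above, with a median of 0.12.

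For 13 amino acids both a cytosolic and a mitochondrial enzyme were among the members, which allowed comparison of the same charging step in the 2 compartments. In GATA2-GMP the log2 fold change of the cytosolic enzyme exceeded that of its mitochondrial counterpart in 11 of 13 pairs, with a median difference of 0.64, that of Lars and the uncertain Lars2. The widest gap was for cysteine, with Cars at 1.04 and Cars2 at -0.65, followed by isoleucine (1.001 and -0.41) and tyrosine (0.91 and -0.36). Histidine (-0.07 and -0.0002) and arginine (0.24 and 0.45) went the other way. In GMP the cytosolic enzyme was ahead in 8 of 13 pairs, with a median difference of 0.07.

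The ATF4 pathway list in GATA2-GMP had 30 of 34 genes positive and a median of 0.99, with 1 called by edgeR, 13 by DESeq2, and 22 higher and 0 lower at an unadjusted p under 0.05. The called gene, Slc6a9, a glycine carrier, rose from 14.2, 16.8 and 17.1 CPM to 52.0, 43.0 and 36.4 CPM (log2 fold change 1.45, edgeR adjusted p = 0.0433). Ddit3 was at 53.2, 156 and 81.7 CPM in WT and 273, 252 and 356 CPM in KO, without overlap (edgeR adjusted p = 0.121). Trib3 and Asns had log2 fold changes of 2.56 (adjusted p = 0.0801) and 1.48 (adjusted p = 0.118). Atf4 mRNA had a log2 fold change of 0.16 (adjusted p = 0.823), and Eif2ak3 one of -1.14 (adjusted p = 0.0792). Eosinophil markers moved with the same genotype: all 8 were lower in KO, Ear1 and Ear2 were called, and their summed ranges are those given above. Wars is also an interferon-induced gene, and the 9 tested genes of an interferon list were all positive (0.26 to 2.18), none of them called. The part of either list in the synthetase differences was not tested.

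Whether the genotype effect differed between the stages was tested over all 12 libraries as an interaction. The median difference (GATA2-GMP minus GMP) was 0.52 for cytosolic and 0.10 for mitochondrial members, and -0.01 for all genes, with 18 of 20 and 10 of 16 positive. Without GATA2-GMP KO 2 the cytosolic median was 0.31. Over the alternative fits the mitochondrial median ran from 0.04 (without GATA2-GMP KO 1) to 0.18 (without GMP KO 1). It was 0.06 without GMP KO 2, GMP KO 3 or GATA2-GMP WT 3, and 0.07 with DESeq2's size factors. It was 0.16 without GATA2-GMP KO 2 and 0.17 without GATA2-GMP KO 3. Against genes of like GC content the mitochondrial median was 0.28, with 9 of 16 above, and the cytosolic median stayed at 0.52, with 18 of 20 above. EdgeR called no member, where it called 0.0312% of 12803 genes as higher and 0.0547% as lower. At an unadjusted p under 0.05 it had 7 cytosolic members higher, 0 lower and no mitochondrial member, against 5.96% and 8.95% of all genes. DESeq2, which called 3.63% of its 19762 genes in either direction, called Vars and Eprs.

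The interaction of Vars was 1.27 (SE 0.28, edgeR adjusted p = 0.0851, DESeq2 adjusted p = 0.00272). Eprs, which was not higher in GMP KO, had 0.96 (SE 0.29, edgeR adjusted p = 0.145, DESeq2 adjusted p = 0.0152), and Dars and Tars had 0.64 (SE 0.21) and 0.67 (SE 0.24, edgeR adjusted p = 0.171 and 0.218). Dars, the aspartyl enzyme, had 262, 250 and 202 CPM in GMP WT and 251, 243 and 215 CPM in GMP KO, which overlapped, and in GATA2-GMP 302, 331 and 294 CPM in WT against 431, 465 and 541 CPM in KO, which did not. Gars had a negative interaction (-0.31, SE 0.17, edgeR adjusted p = 0.444). Without GATA2-GMP WT 3, edgeR called 7 cytosolic members (Eprs, Iars, Vars, Yars, Wars, Cars and Sars) and Tars2, where it called 1179 of 13059 genes, 565 of them higher. Without WT 2 it called Vars alone among the members and 127 of 13033 genes, against 11 of 12803 with all libraries.

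The third comparison set GATA2-GMP against GMP within each genotype. In both genotypes most called cytosolic members were higher and most called mitochondrial members were lower after transduction and culture. In WT, edgeR called 6 cytosolic members higher and 2 lower, and 1 mitochondrial member higher and 9 lower, where 34.1% of 12251 genes were higher and 36.4% lower. The share of cytosolic members called higher in WT, 6 of 20, was thus below that of all genes. In KO it called 14 cytosolic members higher and 2 lower, and 4 mitochondrial members higher and 10 lower, where 38.6% of 12438 genes were higher and 40.0% lower. Medians were 0.43 and -0.79 on the log2 scale for cytosolic and mitochondrial members in WT, 1.04 and -0.94 in KO, and -0.09 and -0.05 for all genes. The cytosolic median in WT was 0.71 without GATA2-GMP WT 1, where 10 were called higher, and 0.24 without GATA2-GMP WT 3, where 2 mitochondrial members were called higher. Without GMP KO 3, 2 mitochondrial members were called higher in KO, and without GATA2-GMP KO 3, 17 cytosolic members were. Markers of other cells moved with stage: 7 later neutrophil granule genes summed to 7.45 to 58.5 CPM in GMP and 26751 to 58023 CPM in GATA2-GMP, 7 mast cell and basophil genes to 110 to 135 CPM and 3846 to 12669 CPM, and 6 monocyte and macrophage genes to 852 to 1106 CPM and 2758 to 8242 CPM. Their part in the synthetase values was not tested. All 18 members called in WT were called in KO in the same direction, 7 higher and 11 lower. The 2 comparisons share no library, but the same change of kit, transduction and culture enters both. Most of all genes were called in each comparison, and the share of all genes called in both is not given here.

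Among rises called in both genotypes the 5 with the largest fold were, in order, Sars, Hars, Rars, Farsb and Rars2 in WT, and Sars, Rars2, Rars, Yars and Tars in KO. Sars, the seryl enzyme, went from 95.3, 89.2 and 83.3 CPM in GMP WT to 202, 335 and 388 CPM in GATA2-GMP WT (log2 fold change 1.79, SE 0.25, edgeR adjusted p = 0.000375). In KO it had 99.9, 88.4 and 88.7 CPM before and 502, 519 and 489 CPM after (2.45, SE 0.14, edgeR adjusted p = 6.44e-07). Rars2, the mitochondrial arginyl enzyme, was the one mitochondrial member called higher in both. It went from 32.6, 33.3 and 29.6 CPM in GMP WT to 72.1, 85.2 and 75.4 CPM in GATA2-GMP WT, with log2 fold changes of 1.29 in WT and 1.67 in KO (edgeR adjusted p = 0.000142 and 9.25e-06). Its cytosolic counterpart Rars rose from 129, 121 and 111 CPM to 263, 362 and 298 CPM in WT (log2 fold change 1.36, SE 0.18, edgeR adjusted p = 0.000231), and in KO from 119, 121 and 114 CPM to 310, 374 and 408 CPM (1.63, SE 0.15, edgeR adjusted p = 9.8e-06). No library of either enzyme overlapped between stages. Hars, the histidyl enzyme, rose from 102, 96.1 and 87.2 CPM to 192, 238 and 311 CPM in WT (1.38, SE 0.21, edgeR adjusted p = 0.000539). Farsb, the beta subunit of the phenylalanyl enzyme, rose from 107, 108 and 94.4 CPM to 281, 300 and 202 CPM in WT (1.34, SE 0.19, edgeR adjusted p = 0.000413). In KO Hars and Farsb rose by 1.35 (SE 0.16) and 1.56 (SE 0.15). Tars, the threonyl enzyme, went from 126, 118 and 104 CPM to 330, 294 and 413 CPM in KO (1.59, SE 0.17, edgeR adjusted p = 2.78e-05), and Yars, with the CPM given above, had a KO value of 1.61 (SE 0.18, edgeR adjusted p = 3.65e-05). Yars, called higher in WT with an adjusted p of 0.0202, had 0.0577 to 0.0650 when any of the 3 GMP WT libraries was left out. Of the members called higher in KO alone, Aars lost the call without any one of GMP KO 1, 2 and 3 and GATA2-GMP KO 1 and 2 (adjusted p up to 0.136), Lars2 without GMP KO 2 or 3 or GATA2-GMP KO 1 or 2 (up to 0.104), and Fars2 without GMP KO 3 (0.0814).

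The largest falls were far larger than the rises. Vars went from 287, 285 and 299 CPM in GMP WT to 8.05, 10.2 and 5.36 CPM in GATA2-GMP WT, a log2 fold change of -5.20 (SE 0.27, edgeR adjusted p = 4.88e-06). In KO it went from 363, 325 and 343 CPM to 25.0, 24.1 and 18.2 CPM (-3.93, SE 0.17, edgeR adjusted p = 2.55e-07). Its mitochondrial counterpart Vars2 went from 42.8, 44.2 and 44.1 CPM in GMP WT to 4.33, 2.64 and 2.16 CPM in GATA2-GMP WT. Aars2 went from 29.7, 36.7 and 29.3 CPM to 2.40, 2.64 and 0.991 CPM, the last from 17 counts. The log2 fold changes of Aars2 and Vars2 were -3.99 (SE 0.35) and -3.85 (SE 0.28) in WT and -3.32 (SE 0.37) and -3.74 (SE 0.20) in KO, with edgeR adjusted p of 3.82e-05 and 1.51e-05, then 3.82e-05 and 6.41e-07. Mars2, the mitochondrial methionyl enzyme, fell from 31.4, 34.0 and 30.6 CPM to 12.4, 7.72 and 6.82 CPM in WT (-1.83, SE 0.25, edgeR adjusted p = 0.000325), and from 32.8, 33.8 and 33.1 CPM to 5.95, 7.94 and 4.58 CPM in KO (-2.42, SE 0.21, edgeR adjusted p = 7.71e-06). Ears2, the glutamyl enzyme, fell from 14.4, 12.6 and 11.996 CPM to 5.18, 2.76 and 4.43 CPM in WT (-1.65, SE 0.28, edgeR adjusted p = 0.000942), and from 15.9, 13.5 and 13.8 CPM to 2.98, 4.10 and 2.63 CPM in KO (-2.14, SE 0.23, edgeR adjusted p = 2.41e-05). None of Aars2, Vars2, Mars2 and Ears2 overlapped between stages in either genotype. Iars2 and Sars2 followed with -1.38 and -1.48 in WT and -1.90 and -1.38 in KO. Mars was the other cytosolic member to fall, by 1.28 in WT and by 0.91 in KO.

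**Figure D4:**
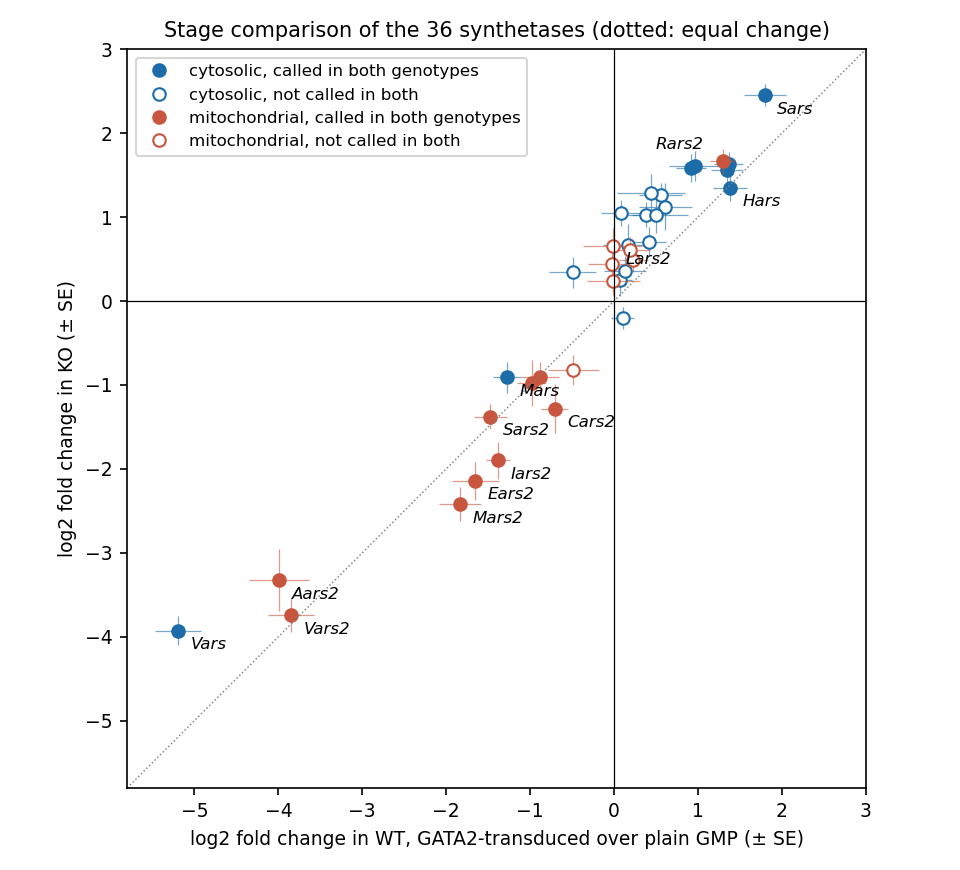
Log2 fold change from GMP to GATA2-GMP in WT (x axis) and in KO (y axis) of the 36 synthetases, with bars of ± 1 SE; filled points were called by edgeR in both genotypes, and the dotted line marks equal change. Vars, Aars2 and Vars2 lie apart at the lower left, below -3 on both axes.

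These stage values moved with base composition. Over all genes with a known exon sequence, fold change fell with GC content (Pearson r = -0.24 across 11489 genes in WT and -0.28 across 11647 in KO; genes share libraries and are not independent). The median log2 fold change of the most GC-rich of 20 bins was -2.25 in WT and -2.65 in KO, against 0.62 and 0.76 in the least GC-rich. Vars (60.3% GC), Sars2 (60.1%) and Aars2 (60.0%) were in the most GC-rich bin and Vars2 (58.4%) in the one before it, in a comparison whose groups also differ in library kit, which cannot be told apart from stage. Against the median of genes of like GC content, the cytosolic median was 0.44 in WT and 0.87 in KO, with 16 and 17 of 20 above. The mitochondrial median was -0.57 and -0.90, with 10 and 9 of 16 below. Sars2, lower in each genotype, was above the median of its bin in both.

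**Figure D5:**
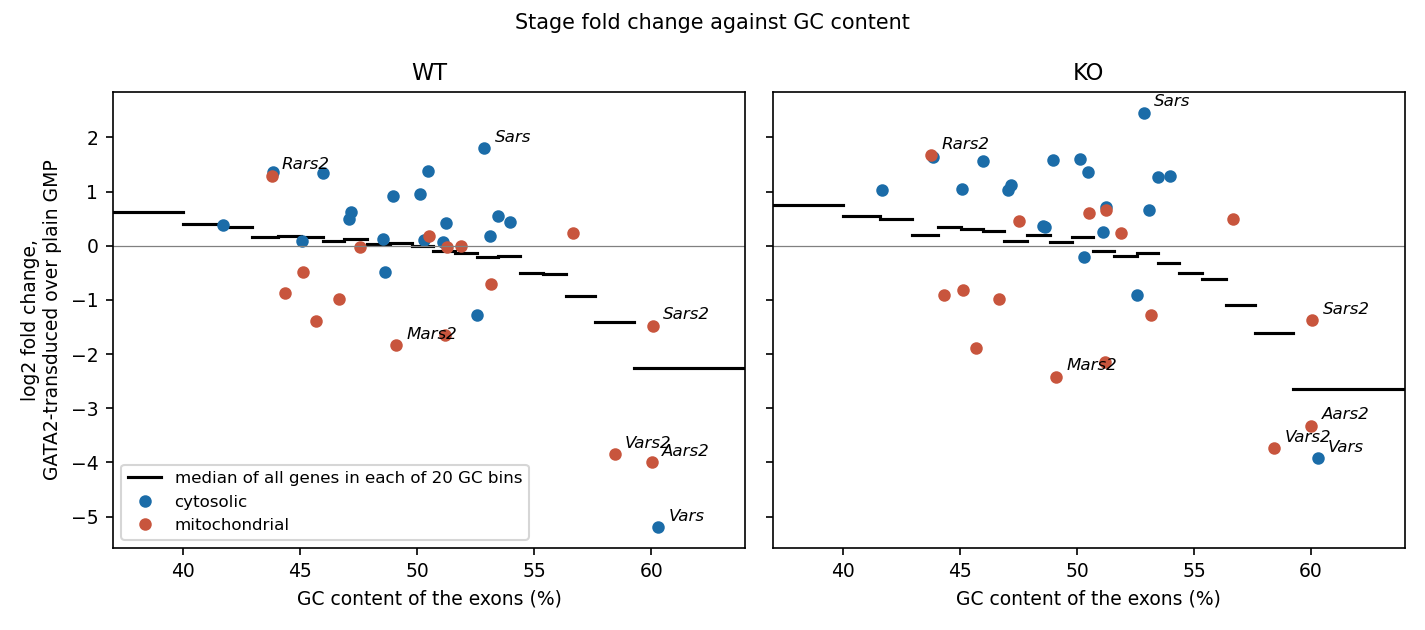
Log2 fold change from GMP to GATA2-GMP against the GC content of each gene's exons, in WT (left) and KO (right); points are synthetases and black bars the median of all genes in each of 20 bins of GC content. The bars fall from 0.62 to -2.25 in WT and from 0.76 to -2.65 in KO, and Vars, Aars2 and Vars2 lie below theirs.

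In the same-acid pairs the cytosolic enzyme had the higher stage fold in 12 of 13 pairs in WT and 11 of 13 in KO, with median differences of 0.89 and 1.94. Valine was an exception in both, since Vars and Vars2 each fell and Vars had the lower value (differences of -1.34 in WT and -0.19 in KO), and arginine was the other in KO (-0.04). The scaffolds Aimp1, Aimp2 and Eef1e1 were each higher in both genotypes, with log2 fold changes of 1.68 to 2.28 in WT and 1.76 to 2.46 in KO. Of the 8 enzymes that they hold, 1 was higher and 1 lower in WT, and 5 were higher and 1 lower in KO. Among 15 other genes of tRNA charging and handling, 4 were higher and 7 lower in WT, and 5 and 5 in KO. Trnt1, which adds the CCA end to tRNAs, was higher in both (2.23 in WT and 2.17 in KO), and Elac2, which trims their 3′ ends, lower in both (-2.50 and -2.62).

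The ATF4 pathway list had 15 genes higher and 10 lower in WT among 33 tested, and 20 higher and 7 lower in KO among 34. Trib3, Asns, Ddit3 and Atf4 were called higher in both, with log2 fold changes of 6.85, 4.10, 3.28 and 0.68 in WT and 6.71, 4.89, 4.91 and 0.92 in KO. Atf5 was called lower in both (-1.72 and -1.32), as was Shmt2 (-1.52 and -0.47). Eif2ak4, the gene of GCN2, fell by 1.77 in WT and by 1.97 in KO, and Gcn1l1, a partner that GCN2 needs for sensing uncharged tRNA, by 3.52 and by 2.63. Impact, an inhibitor of GCN2, was higher in both (1.95 in WT).

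Some members share bases with a neighbour on the opposite strand, and no source used here states whether counting used strand. In the GENCODE vM1 annotation of mm9, Iars2 shares 2018 of its exon bases (22.7%) with Rab3gap2, Farsb 265 (10.8%) with Sgpp2, Vars 304 (5.42%) with D17H6S56E-5, Hars and Hars2 195 with each other, and Mars 68 with Ddit3. The values of these genes are uncertain to that extent.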

How the data were processed

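Raw read counts for each gene symbol, deposited by the authors with a file for each library, are whole numbers whose sums differ. The submitters' processing notes list STAR 2.3.0, HTSeq, DESeq, SAMtools 0.1.14 and mm9, with no roles; annotation and strand setting are not given in the sources used here. Each file held 5 rows for reads of no gene (55.8 to 66.5% of records), left out. Gene names had become dates in 27 cases: 23 were restored and 4 left out, none of them a synthetase.

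EdgeR 4.0.16 (R 4.3.3) was run with filterByExpr, TMM scaling and glmQLFTest (robust fit) on the libraries of each comparison, with Benjamini-Hochberg adjustment across every gene tested (threshold 0.05). Genotype was tested within each stage (6 libraries), its difference between stages as an interaction (12 libraries), and stage within each genotype. SE was computed as |log2 fold change| over √F. CPM per library were scaled by TMM over all 12 libraries, and per-kilobase values use the GENCODE vM1 exon union (90.1% of genes have a GC value). Library totals are given in the report, and precision is limited by 3 libraries a group. Scripts were tested on simulated counts.

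Replicate numbers were checked as pairs by correlating deviations from group means across genes: same numbers gave 0.318, 0.249 and 0.192 in GMP, which were taken as pairs, -0.160, -0.314 and -0.486 in GATA2-GMP, 0.0151, 0.0109 and 0.0452 between WT stages, and 0.0199, -0.0509 and -0.0368 between KO stages.

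Alternatives were DESeq2 1.42.0, its size factors, no count filter, a replicate block, all 12 libraries in one fit and leaving out each library. The comparison with genes of like GC content (20 bins) and leaving out Lars2 were chosen after seeing the data. All 36 members are named or counted; described with values are the 4 with the smallest adjusted p in a genotype comparison and the 5 largest rises and falls called in both stage comparisons. Members and gene lists were chosen with earlier results of these data known. Of the lists, Gcn1, Ighm, Adgre1 and Gatb were not found under these names. The window of 1 further promoter match is not reported here.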

Additional observations from a re-analysis of the deposited data

How the results depend on the processing

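Calls of cytosolic members in the genotype comparisons depended on the model. In GMP, edgeR called 0 of 20, DESeq2 3, edgeR without the count filter 3, and 5 with the replicate block; leaving out 1 library gave 0 to 3. In GATA2-GMP edgeR called 0, DESeq2 3, no filter 2 and the fit over all 12 libraries 8, with 0 to 6 when 1 library was left out (mitochondrial members 0 to 1). For the difference between stages edgeR called 0 and DESeq2 2, with 0 to 7 when 1 library was left out (mitochondrial members 0 to 1). The replicate block called no member in GATA2-GMP or in the difference. Counts over all genes moved too: 381 in GMP became 964 with the block, 17 over all 12 libraries and 209 to 398 with 1 library left out; 44 in GATA2-GMP became 502 with DESeq2, 294 without filter, 3 with the block, 1461 over all 12 libraries and 0 to 525 with 1 left out; 11 in the difference became 17 with DESeq2's size factors, 718 with DESeq2, 40 without filter, 0 with the block and 0 to 1179 with 1 left out. The causes were not tested. Totals of members called between stages stayed within 1.5 times of the main ones under these alternatives, the replicate block included (8 and 16 cytosolic, 10 and 14 mitochondrial members in WT and KO). By direction, 6 cytosolic members higher in WT became 10 without GATA2-GMP WT 1, 1 mitochondrial member higher in WT became 2 without GATA2-GMP WT 3, and 4 mitochondrial members higher in KO became 2 without GMP KO 3. No called member changed sign under these alternatives; of 2160 values of single members, 83 changed sign where neither fit called the member, among them Lars2, Pars2 and Wars2 between WT stages with DESeq2's size factors. Low counts limit Aars2, Vars2 and Ears2 in GATA2-GMP.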

Other observations

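Translation genes outside charging were given as context. Of 8 cytosolic elongation and termination factors, Eef2, the translocase, was called higher in GMP KO (log2 fold change 0.25, edgeR adjusted p = 0.0155) and none was called in GATA2-GMP. Between stages, Eef1d was higher in WT and KO (1.69 and 1.42) and the termination factor Gspt1 lower (-1.16 and -1.50). Of 11 mitochondrial translation factors, none was called in either genotype comparison, and Guf1 (-1.64 and -1.50) and Lrpprc (-1.21 and -1.43) were lower in GATA2-GMP of both genotypes. The structural classes of synthetases, which differ in the fold of their catalytic domain, both held positive values: in GATA2-GMP 13 of 19 class I and 14 of 17 class II members had a positive genotype fold change.

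The fold changes of the genotype comparisons, which share no library, had a Pearson r of 0.38 across the 36 members, 0.52 across the 20 cytosolic ones and 0.22 across 10941 genes, given as descriptions because genes share libraries.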
